A study of Drosophila melanogaster with 12 samples.

Results

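Transcript levels of 10 genes of epidermal growth factor receptor (EGFR) signalling that act above the transcription factor *pnt* were examined in guts and fat bodies of adult female *Drosophila melanogaster*. The genes were taken by name as receptor (*Egfr*), ligands (*spi*, *Krn*, *vn*), ligand protease (*rho*), inhibitors (*aos*, *sty*, *kek1*) and kinases (*Dsor1*, *rl*). They are 10 of 11409 genes counted in either organ. All 10 had a row among the 11056 fat body genes, and 9 had a row among the 10358 gut genes, where *kek1* was not analysed. Every fly carried a *UAS* transgene for RNAi against *Pnt* under *S106*, a GeneSwitch driver that is active in gut and fat body once flies eat RU486. Induced flies had eaten 200 µM RU486 for 6 days after 48 h of mating, and control flies were labelled as not induced and, by the methods, received vehicle. Each of the 4 groups (induced gut, control gut, induced fat body, control fat body) had 3 libraries, each from pooled organs of 12 flies, and ages beyond this were not given in the sources used here. No group received RU486 without the RNAi transgene, so effects of inducer and RNAi cannot be told apart. Guts were freed of Malpighian tubules, and the fat body was the abdominal carcass left once the reproductive organs were out, cuticle included.

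EGFR is a cell-surface tyrosine kinase that, once bound by a ligand, activates Ras, Raf, the MAPK kinase MEK (*Dsor1*) and the MAP kinase ERK (*rl*), which phosphorylates Pnt. Spitz and Keren must be cut by a Rhomboid protease before they can signal, whereas Vein is secreted without that step. Argos, Sprouty and Kekkon1 damp the pathway in feedback, and in the adult midgut EGFR ligands from muscle, enterocytes and progenitors sustain the division of intestinal stem cells.

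Total counts per library were between 4932359 and 10254951. Control gut library 112 and control fat body library 106 stood furthest from the other controls of their organ, with median absolute log2 differences of 0.61 and 0.57 over genes averaging 50 counts or more. The other 10 libraries lay at 0.17 to 0.50 from their own group. Libraries 103, 104, 106, 108 and 112 were each closer to the other treatment group of their organ than to their own, 112 by the widest margin (0.29 from the induced guts). Results that turn on libraries 106 and 112 are therefore given with and without them. Levels below are in CPM, the count of a gene per scaled library total, on 1 scale for all 12 libraries set by the trimmed mean of M values (TMM). The targeted gene *pnt* measured 25.2, 24.8 and 28.1 CPM in induced guts against 32.9, 34.8 and 27.4 in control guts. In the fat body it stood at 7.08, 8.92 and 9.69 CPM against 9.56, 10.2 and 11.7. It did not pass the test in either organ (log2 fold change -0.31, standard error 0.21, and -0.30, standard error 0.26).

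Enterocyte and fat body markers separated the organs as labelled. The 6 enterocyte markers summed to between 17881 and 33046 CPM in guts and to between 18.04 and 51.7 in fat bodies, where *Jon25Bi* and *nub* were at 0 in at least 1 library. The 6 of 7 fat body markers with a row summed to between 25503 and 104517 CPM in fat bodies and to between 694 and 1862 in guts. Haemocyte markers summed to 104 to 194 CPM in fat bodies (5 genes) and to 28.2 to 49.7 in guts (4 genes, without *eater*), but 1 of them, *Pxn*, was higher in guts (13.4 to 30.9 against 6.56 to 10.4). The 4 neuron markers summed to 75.2 to 137 CPM in fat bodies against 16.8 to 40.9 in guts. Malpighian tubule markers (4 genes) summed to 68.0 to 256 CPM in guts, although these had been freed of tubules, and to 119 to 358 in fat bodies. Muscle markers, at 1437 to 3389 against 1214 to 1453 CPM, overlapped. Ovary and germline markers varied from 15.9 to 927 CPM between guts and from 44.0 to 373 between fat bodies.

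**Figure D1:**
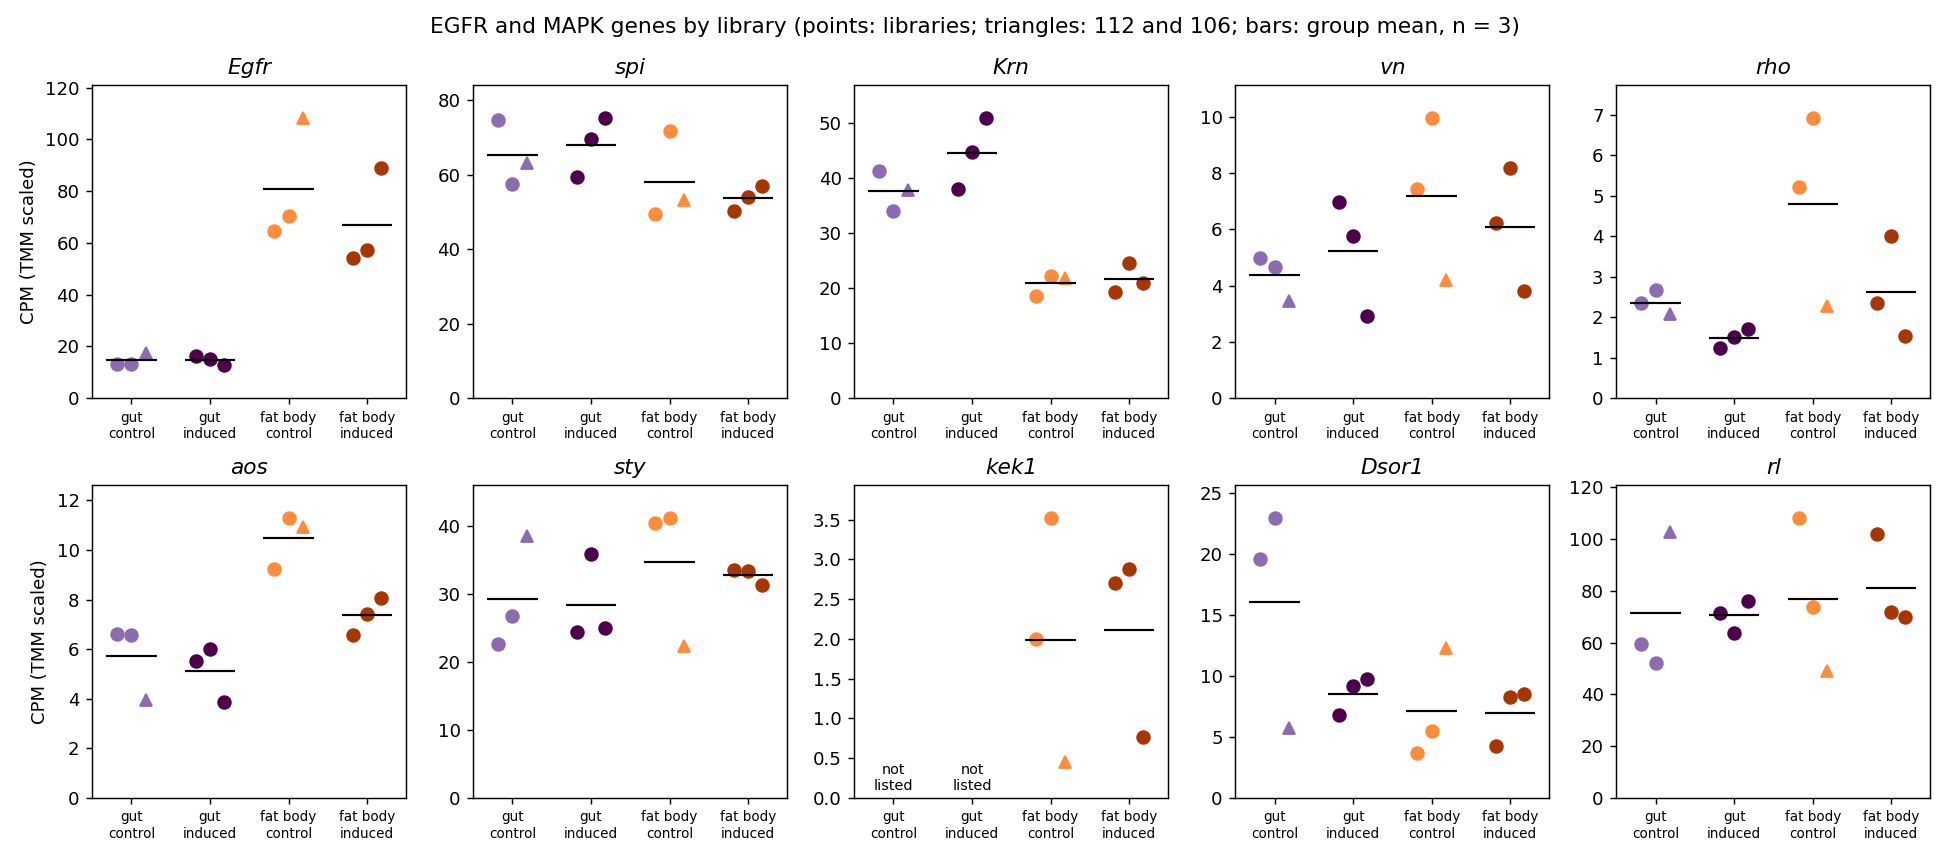
Level of each gene (CPM on a linear axis from 0) in each of the 12 libraries, by organ and treatment, with the mean of 3 libraries as a bar and control libraries 112 (gut) and 106 (fat body) as triangles. *Egfr* lay between 12.6 and 17.6 CPM in all guts and between 54.3 and 108 in all fat bodies, and the control gut library with the lowest *Dsor1* was 112.

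Between induced and control flies, 0 of 9 genes in the gut and 0 of 10 in the fat body were called at 10% FDR. The test was edgeR's quasi-likelihood test, with p-values adjusted over every gene of the organ. Changes too small for 3 libraries a group remain possible, as the 95% interval of *Dsor1* in guts ran from 0.241-fold to 1.11-fold. In the same tests 0.0483% of all gut genes and 0% of all fat body genes were called, so few calls were made anywhere. An unadjusted p under 0.05 was reached by 0 of the genes in either organ, against 562 of 10358 gut genes and 302 of 11056 fat body genes. DESeq2 also called 0 of the genes in either organ, as did limma on the authors' transformed values. The median log2 fold change of the genes was -0.04 for guts and -0.10 for fat bodies, where the median over all genes was -0.06 and -0.05. Every induced library lay below every control for *rho* in the gut, 1 of 9 genes where 4.61% of gut genes did so, and for *aos* in the fat body, 1 of 10 where 3.92% did. The opposite order, every induced library above every control, was found for 0 of the genes, against 5.44% of gut genes and 4.22% of fat body genes.

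Library 112 was singled out after the data were seen and lay closer to the induced guts than to the other controls. Leaving it out therefore favours calls. Without control library 112, edgeR called 1 of the 9 genes in the gut. *Dsor1* was then lower on induction, in a fit in which 6.26% of all gut genes were lower and 2.23% higher. Without control library 106 the fat body still gave 0 of 10, with 0% of genes called higher and 0% lower, and *rho* alone had an unadjusted p under 0.05 (0.0344, adjusted p = 0.89).

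**Figure D2:**
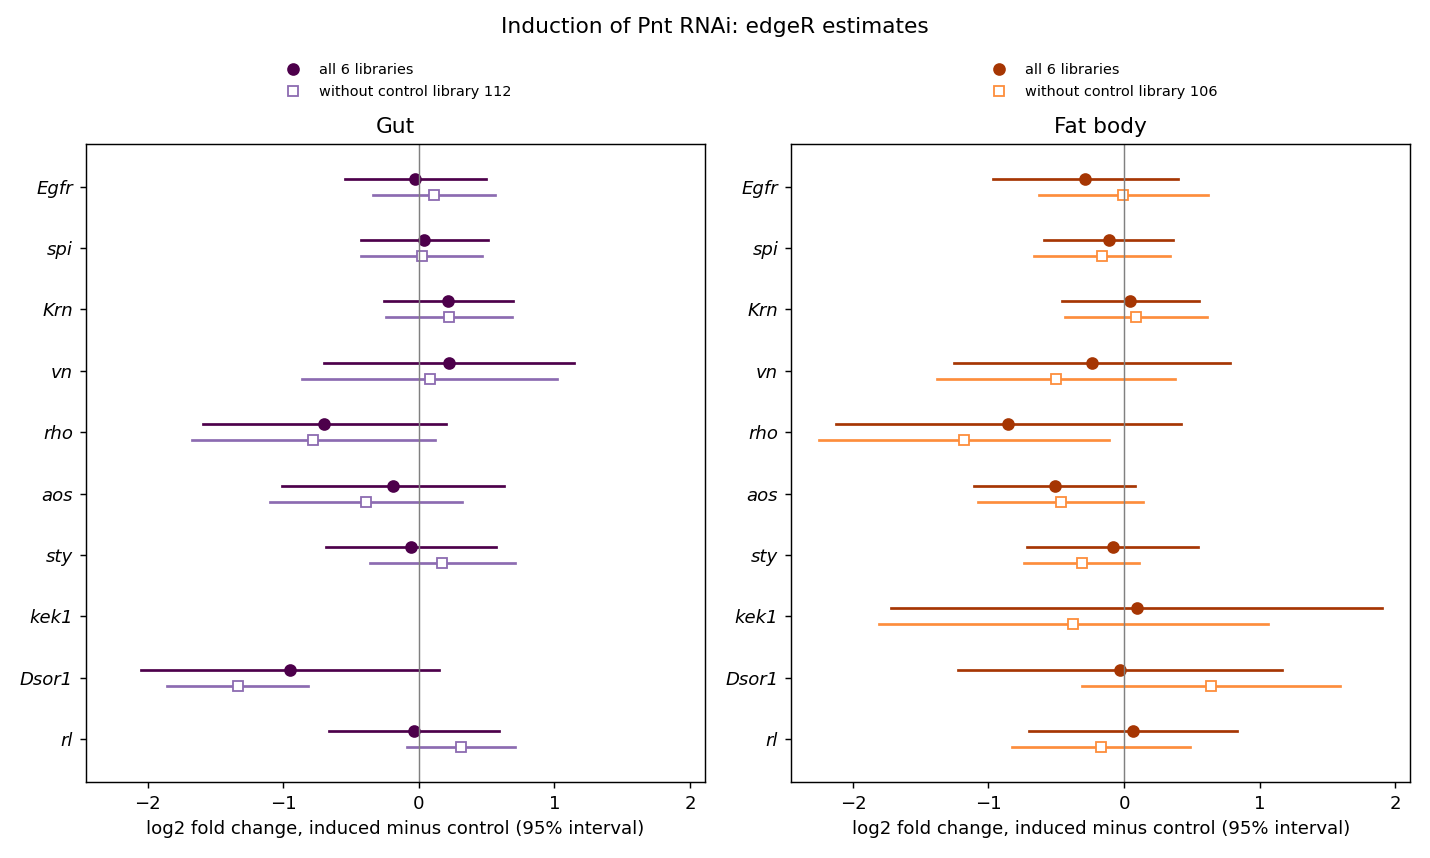
Log2 fold change of each gene on induction (points) with its 95% interval (lines), from edgeR, in gut and fat body, with all 6 libraries (filled circles) and without the control library that stood apart (open squares). With all libraries every interval crossed 0. Without library 112 the interval of *Dsor1* in the gut ran from -1.86 to -0.82.

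Between organs the picture was different. In control flies edgeR called 3 of the 9 genes compared, among 10005 genes present in both organs. *Krn* was higher in the gut, as were 19.9% of all genes, and *Egfr* and *aos* were higher in the fat body, as were 18.3%. In induced flies *Krn* was again higher in the gut (21% of all genes were) and *Egfr* again higher in the fat body (22.8% were), while *aos* did not pass. Without libraries 106 and 112, an alternative chosen after the data were seen, 7 of 9 passed in control flies. *Krn* and *Dsor1* were then higher in the gut, where 30.7% of all genes were, and *Egfr*, *rho*, *aos*, *sty* and *rl* were higher in the fat body, where 28.5% were. The induction response did not differ detectably between organs for any of the 9 genes (interaction test, 0 of 9 called, 0% of all genes called, 341 of 10005 genes and 0 of the 9 with an unadjusted p under 0.05). DESeq2 called 13 genes for the interaction and 0 of these 9.

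**Figure D3:**
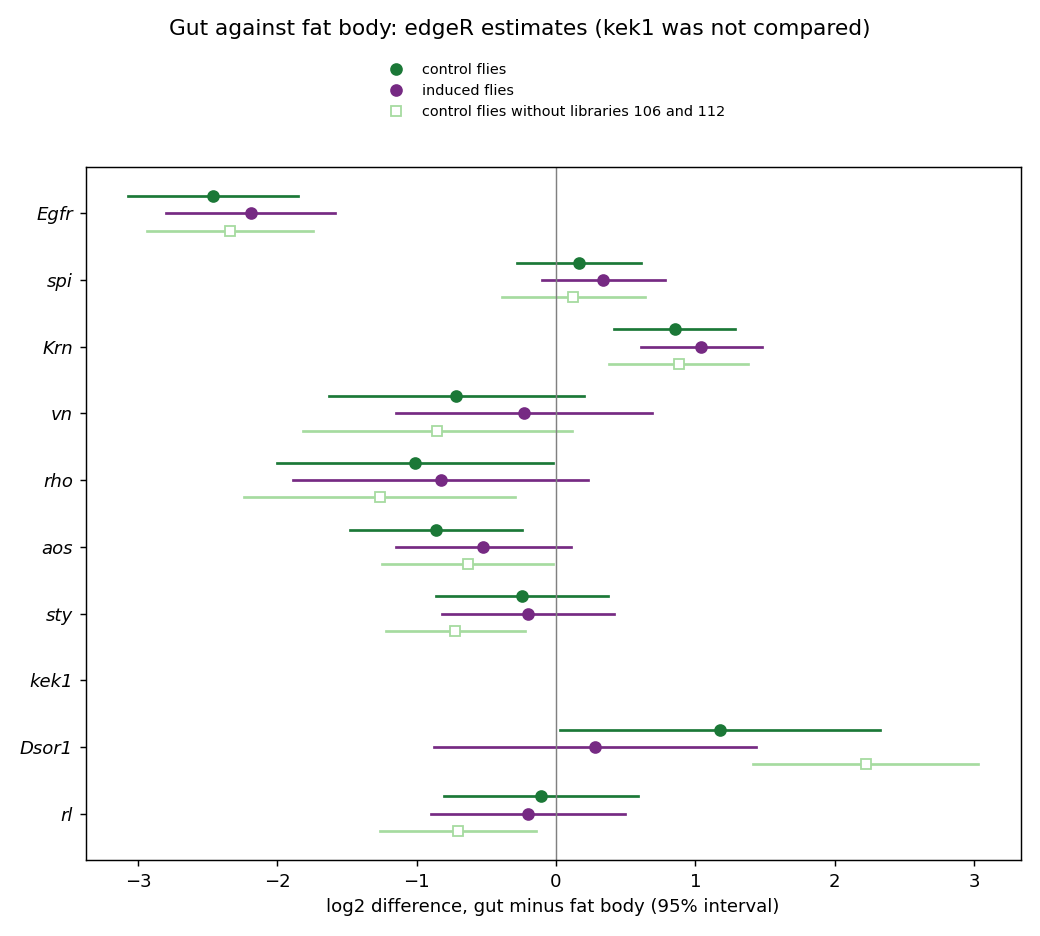
Log2 difference between gut and fat body (points, positive where the gut was higher) with its 95% interval (lines), from edgeR, in control flies, in induced flies and in control flies without libraries 106 and 112. *Egfr* lay at -2.46, -2.19 and -2.34, and *Krn* at 0.85, 1.04 and 0.88. *Dsor1* moved from 1.18 to 2.22 once the 2 libraries were left out.

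The receptor gene *Egfr* (FBgn0003731, chromosome arm 2R, 21522420 to 21559977, plus strand, Ensembl annotation BDGP6.54 of genome release 6) was the member that differed most between organs. Induced guts held 16.2, 15.1 and 12.6 CPM and control guts 13.3, 13.3 and 17.6. In fat bodies it stood at 54.3, 57.3 and 88.9 CPM when induced and at 64.5, 70.3 and 108 in controls. Every fat body library was above every gut library, whether induced or not. The level was 5.51-fold higher in control fat bodies (log2 difference, gut minus fat body, -2.46, standard error 0.28, adjusted p = 1.53e-05) and 4.56-fold higher in induced ones (-2.19, standard error 0.28, adjusted p = 4.17e-05). In pooled organs, a larger share of cells with the transcript and more transcript per cell cannot be told apart. The carcass libraries with most *Egfr*, 103 and 106, also held the most *Cyp4g1* (33590 and 50750 CPM), a cytochrome P450 gene of oenocytes, although library 105 had nearly as much as 103 (32770) with less *Egfr*. This gene was the 1 of 4 oenocyte markers with a row and ran from 17340 to 50750 CPM in fat bodies against 43.1 to 103 in guts. Libraries 103 and 106 likewise held the most of all 6 fat body markers with a row, such as *FASN1* (3622 and 2951 CPM, at most 2531 in other fat bodies). The same held for the haemocyte markers *Hml*, *NimC1*, *eater* and *srp*, but not for *Pxn*. The part of fat body cells, oenocytes, haemocytes or neurons in the *Egfr* difference was not tested. On induction, groups overlapped in both organs. In guts the log2 fold change was -0.02 (95% interval -0.55 to 0.50) and in fat bodies -0.29 (-0.97 to 0.39), so an increase beyond 1.41-fold in guts lay outside the interval.

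Of the TGF-alpha-like ligands, *Krn* passed the test between organs and *spi* did not. *spi* (FBgn0005672, 2L, 19567900 to 19577315, minus strand) encodes Spitz, the main ligand in development. Induced guts held 59.4, 69.7 and 75.1 CPM, and control guts 74.7, 57.6 and 63.3. In fat bodies it stood at 50.2, 54.0 and 57.0 CPM when induced and at 49.4, 71.8 and 53.2 in controls. The groups overlapped, except that every gut library, induced or control, lay above every induced fat body library. The difference between organs did not pass the test (log2 0.17 in controls, 95% interval -0.28 to 0.61, and 0.34 in induced flies, -0.10 to 0.78). Its intervals for induction, -0.43 to 0.51 for guts and -0.59 to 0.36 for fat bodies, were the narrowest of the set.

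*Krn* (FBgn0052179, 3L, 17649562 to 17654280, minus strand) encodes Keren, the closest relative of Spitz. Guts held 37.9, 44.7 and 50.7 CPM when induced and 41.1, 34.0 and 37.8 in controls. Fat bodies held 19.2, 24.5 and 20.8 CPM when induced and 18.6, 22.2 and 21.7 in controls. All 6 guts exceeded all 6 fat bodies. The level was 1.81-fold higher in control guts (log2 0.85, standard error 0.20, adjusted p = 0.00484) and 2.06-fold higher in induced guts (log2 1.04, standard error 0.20, adjusted p = 0.0012). Within each organ, induced and control libraries overlapped (log2 fold change 0.22, standard error 0.21, for guts, and 0.05, standard error 0.22, for fat bodies). The neighbouring gene *Ndfip* shares 289 bases, 21.3% of *Krn* exon sequence, on the same strand, so reads from that stretch are uncertain. The other 9 genes had no such exon overlap in the annotation.

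*vn* (FBgn0003984, 3L, 5813338 to 5845664, minus strand) encodes Vein, a neuregulin-like ligand made by visceral muscle of the midgut. It was low everywhere, with 6.97, 5.75 and 2.93 CPM in induced guts and 4.97, 4.66 and 3.45 in control guts, from 19 to 49 counts a library. Fat bodies held 6.24, 8.18 and 3.81 CPM when induced and 7.45, 9.94 and 4.20 in controls. Groups overlapped in every direction. The difference between organs was -0.71 in control flies on the log2 scale (95% interval -1.63 to 0.20, adjusted p = 0.235), and it passed without fat body library 106 (log2 -0.99, adjusted p = 0.0786) but not without both 106 and 112 (adjusted p = 0.126). The induction intervals, -0.70 to 1.14 for guts and -1.25 to 0.78 for fat bodies, were among the wider ones.

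*rho* (FBgn0004635, 3L, 1463811 to 1468944, plus strand) encodes Rhomboid, the intramembrane protease that releases Spitz and Keren and is the limiting step of ligand release in many tissues. Induced guts held 1.23, 1.501 and 1.70 CPM and control guts 2.35, 2.66 and 2.07. These rest on 6, 12 and 11 counts against 17, 28 and 12. The groups did not overlap, with or without library 112, yet the log2 fold change of -0.70 (standard error 0.39, 95% interval -1.59 to 0.20, adjusted p = 0.836) did not pass. Fat bodies held 2.36, 3.996 and 1.53 CPM when induced and 5.22, 6.91 and 2.27 in controls. There the groups overlapped through library 106, the lowest control, and the log2 fold change was -0.85 (standard error 0.55, adjusted p = 0.986) with it and -1.18 (standard error 0.45) without it. The 4 neuron markers summed to 75.2 to 94.2 CPM in induced fat bodies and to 91.4 to 137 in controls, with none at 0, and they did not follow 1 order. *brp* was lowest in library 106 (1.71) and highest in 105 (16.1), whereas *elav* was highest in 106 (101). The part of nerve tissue in the *rho* levels was not tested. The difference between control organs was -1.01 on the log2 scale (adjusted p = 0.117), and it passed without library 106 (-1.35, adjusted p = 0.0223) and when libraries were scaled by upper quartile (-1.21, adjusted p = 0.0645).

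Among the inhibitors, *aos* (FBgn0004569, 3L, 16470386 to 16483650, minus strand) encodes Argos, a secreted protein that binds Spitz and keeps it from the receptor. In fat bodies it stood at 6.57, 7.43 and 8.06 CPM when induced and at 9.23, 11.3 and 10.9 in controls. All induced libraries were below all controls, by 0.51 on the log2 scale (standard error 0.25, 95% interval -1.10 to 0.08, unadjusted p = 0.0807 and adjusted p = 0.986 by edgeR). Guts held 5.53, 6.00 and 3.86 CPM when induced and 6.63, 6.56 and 3.97 in controls, and these overlapped (log2 fold change -0.19, standard error 0.36). Argos transcript was 1.82-fold higher in control fat bodies than in control guts (log2 -0.86, standard error 0.28, adjusted p = 0.0339). Without fat body library 105 this just missed the threshold (-0.81, adjusted p = 0.103). In induced flies the difference was smaller and did not pass (-0.52, standard error 0.29, adjusted p = 0.186), but the interaction did not pass either (0.34, standard error 0.40).

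*sty* (FBgn0014388, 3L, 3401153 to 3424935, minus strand) encodes Sprouty, an intracellular inhibitor of receptor tyrosine kinase signalling. Guts held 24.4, 35.8 and 25.0 CPM when induced and 22.6, 26.7 and 38.5 in controls. Fat bodies held 33.5, 33.4 and 31.3 CPM when induced and 40.5, 41.1 and 22.3 in controls. The extreme control value in each organ came from the library that stood apart, the highest gut control being 112 and the lowest fat body control 106. With them the difference between organs did not pass (log2 -0.24, 95% interval -0.86 to 0.37). Without them *sty* was 1.65-fold higher in the fat body of controls (log2 -0.72, standard error 0.22, adjusted p = 0.0212). Induction left it within the spread of replicates in either organ (log2 fold change -0.06, standard error 0.27, and -0.09, standard error 0.27).

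*kek1* (FBgn0015399, 2L, 12817000 to 12822787, minus strand) encodes Kekkon1, a transmembrane protein that binds EGFR and limits its activity. It had the lowest mean level of the 10 genes in fat bodies. These held 2.70, 2.88 and 0.763 CPM when induced and 2.001, 3.52 and 0.455 in controls, from 4 to 31 counts a library. Libraries 103 and 106, which had the most *Egfr*, had the least *kek1*. The induction interval ran from 0.304-fold to 3.74-fold and was the widest of the set, and few counts limit what could be detected.

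*Dsor1* (FBgn0010269, X, 9247342 to 9250037, plus strand) encodes the fly MEK, the kinase that phosphorylates Rolled. Induced guts held 6.76, 9.13 and 9.71 CPM, from 33, 73 and 63 counts. Control guts held 19.6, 22.9 and 5.69 CPM, from 142, 241 and 33 counts. Controls 110 and 111 were thus far above every induced gut, and control 112 was below all of them. With all libraries the log2 fold change was -0.95 (standard error 0.48, 95% interval -2.05 to 0.15, adjusted p = 0.836). Without library 112 edgeR gave -1.34 (standard error 0.22, adjusted p = 0.0536), a 2.52-fold lower level on induction. DESeq2 gave -1.31 (adjusted p = 0.000829) with the same library left out. Library 112 was singled out after the data were seen and held the least *Dsor1* of the controls. Leaving it out therefore favours a difference, and these p-values do not allow for that choice. Without control library 111 the edgeR value was -0.56 (adjusted p = 0.9999). The Malpighian tubule gene *Uro* was at 133, 6.00 and 4.63 CPM in the induced guts and at 57.85, 57.85 and 12.4 in the controls, so it was high in the controls with much *Dsor1* and highest in induced library 107, which had little. The other tubule markers did not all run alike. *salt* was at 77.0 and 82.8 CPM in controls 110 and 111 and at 78.3 in library 107. *Best2* was at 6.77, 9.13 and 2.93 CPM in the controls and at 3.55 to 4.75 in induced guts. *Irk2* was at 60.8, 55.0 and 60.3 CPM in the controls, without such a split. The split was not particular to *Dsor1*. *Raf* was at 21.0, 22.4 and 10.9 CPM in controls 110, 111 and 112 and at 16.5 to 17.2 in induced guts. Of the enterocyte markers *Amy-p* alone was split so, at 1121, 714 and 314 CPM in these controls and at 339 to 434 in induced guts. The part of tubule tissue or enterocytes in the *Dsor1* levels was not tested. Fat bodies held 4.21, 8.27 and 8.50 CPM when induced and 3.67, 5.46 and 12.3 in controls, which overlapped. There the log2 fold change was -0.03 with library 106 and 0.64 (standard error 0.40) without it. Between organs the difference was 1.18 in control flies (standard error 0.53, adjusted p = 0.114) and 0.28 in induced flies (standard error 0.53, adjusted p = 0.719). The control value passed without library 112 (1.57, adjusted p = 0.0193), without library 106 (1.83, adjusted p = 0.0171) and by DESeq2 with all libraries (1.17, adjusted p = 0.0831). The interaction was -0.90 (standard error 0.75, adjusted p = 0.9996).

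*rl* (FBgn0003256, 2R, 1071462 to 1125927, plus strand) encodes Rolled, the fly ERK. Guts held 71.5, 63.8 and 76.2 CPM when induced and 59.6, 52.0 and 103 in controls. Fat bodies held 102, 71.7 and 69.9 CPM when induced and 108, 73.8 and 49.2 in controls. Library 112 was again the extreme gut, this time the highest, and library 106 the lowest fat body. Neither induction (log2 fold change -0.04, standard error 0.27, for guts, and 0.07, standard error 0.33, for fat bodies) nor organ (-0.11 in controls, standard error 0.32) made a difference that passed. Without libraries 106 and 112 the fat body of controls was higher by 1.63-fold (log2 -0.71, standard error 0.25, adjusted p = 0.0391).

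**Figure D4:**
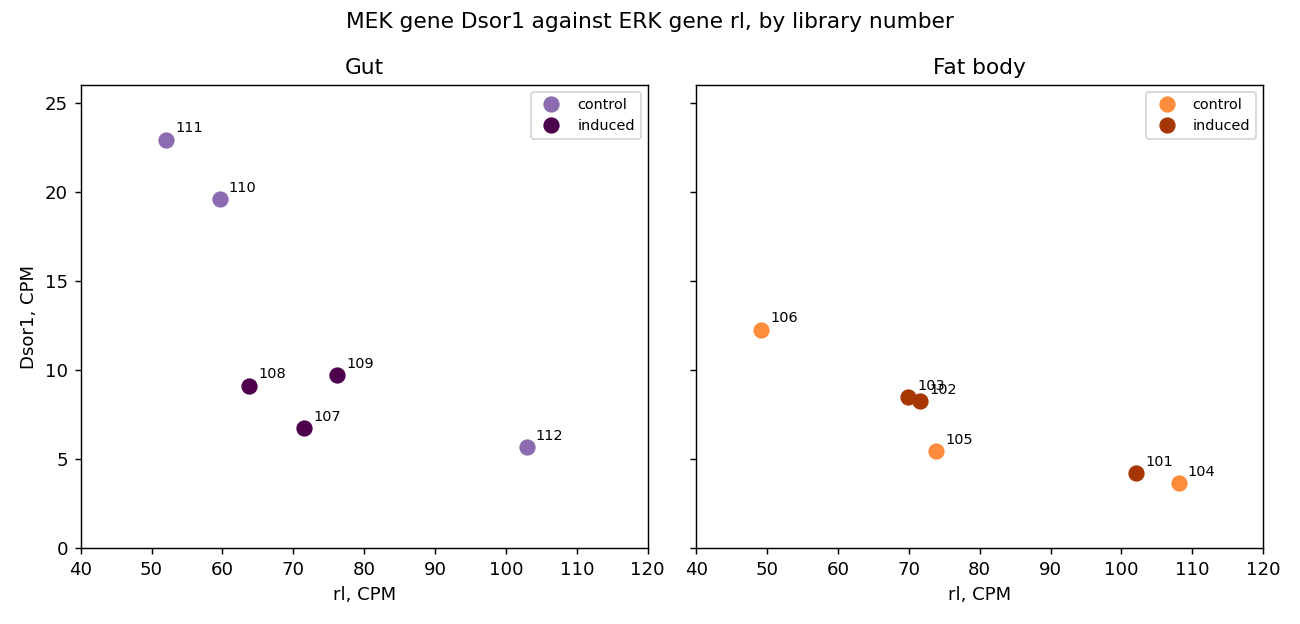
*Dsor1* against *rl* (CPM on linear axes) in each library, labelled with its number, in gut and fat body. In each organ the library with the highest *rl* had the lowest *Dsor1* (112 in gut, 104 in fat body), and the library with the lowest *rl* had the highest *Dsor1* (111 and 106).

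Levels of different genes can be compared only per length, here as CPM per kilobase of annotated exon. *spi* headed the order in all 4 groups, at 35.9 ± 4.8 CPM per kilobase in control guts (SD, n = 3), 37.5 ± 4.38 in induced guts, 31.98 ± 6.603 in control fat bodies and 29.6 ± 1.86 in induced fat bodies. *Krn* was next, at 27.8 ± 2.65, 32.8 ± 4.74, 15.4 ± 1.45 and 15.9 ± 2.02. The ranges of *spi* and *Krn* overlapped in induced guts alone. *Egfr* changed its place between organs. In control guts it was the sixth of 9, at 2.12 ± 0.36 CPM per kilobase, next to *aos* at 2.03 ± 0.54, from which it did not differ beyond the spread. In control fat bodies it was the third of 10, at 11.7 ± 3.41, and overlapped with *Krn* above it and *rl* below it (10.2 ± 3.90). In guts *rl* (9.42 ± 3.62), *Dsor1* (8.94 ± 5.08) and *sty* (5.38 ± 1.51) overlapped with each other in controls. *vn* and *rho* were at the bottom of the gut order (0.832 ± 0.154 and 0.787 ± 0.0993) and overlapped in controls, and *kek1* closed the fat body order at 0.344 ± 0.265.

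**Figure D5:**
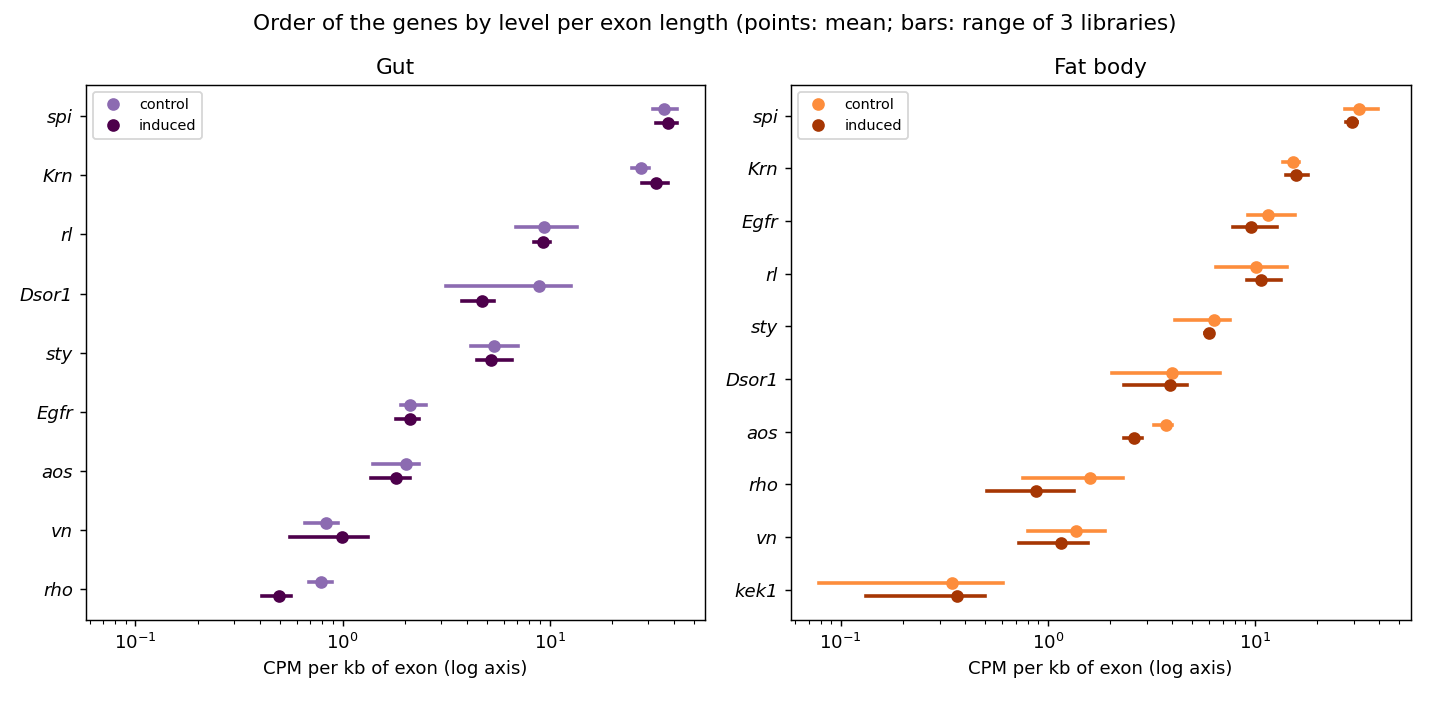
Genes in the order of their mean level in controls (CPM per kilobase of exon, log axis), as points with the range of 3 libraries as bars, for control and induced organs. *Egfr* stood near 2.12 CPM per kilobase in control guts and at 11.7 in control fat bodies, while *spi* stood at 35.9 and 31.98.

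Other genes of the pathway were followed in a list of 46, of which 39 gut and 42 fat body rows were tested. On induction 0 of them passed in either organ by edgeR or DESeq2, with medians of -0.12 and -0.03 on the log2 scale against -0.06 and -0.05 over all genes. An unadjusted p under 0.05 was reached by 0 gut and 2 fat body rows of the list, those of *stet*, a Rhomboid family gene (log2 fold change 1.6026), and *htl*, a fibroblast growth factor receptor gene (-0.67). Without library 112, 1 of 39 passed in the gut, in the fit that called 6.26% of all genes lower and 2.23% higher, so the list gave no larger share than the background. This 1 was *Pvr*, the PDGF and VEGF receptor gene, which was lower on induction (log2 fold change -0.82, standard error 0.22, adjusted p = 0.0951).

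Between organs of control flies, 5 of the 39 were higher in the gut, as were 19.9% of all genes, and 10 were higher in the fat body, as were 18.3%, at a median of -0.16 against -0.002 over all genes. In induced flies 5 were higher in the gut (21% of all genes) and 12 in the fat body (22.8%). Without libraries 106 and 112, 7 of the 39 were higher in control guts (30.7% of all genes) and 13 in control fat bodies (28.5%). The target *pnt* itself was 3.02-fold higher in the gut (log2 1.596, standard error 0.21, adjusted p = 5.45e-05), where *Egfr* was lower. *rho-4*, a Rhomboid family gene, was 4.95-fold higher in the gut (log2 2.31, standard error 0.21), at 70.7 to 109 CPM in the 3 control guts against 16.1 to 17.8 in control fat bodies. *Sos*, the exchange factor that loads Ras with GTP (log2 1.25, standard error 0.39), and *kek5*, a relative of *kek1* (1.06, standard error 0.36, adjusted p = 0.0377), were also higher in the gut. The call of *kek5* was lost without libraries 106 and 112 (log2 0.37, adjusted p = 0.202). In control flies *pnt*, *rho-4*, *Sos* and the fat body genes *kek2*, *grk*, *tor* and *Alk* passed either way. In induced flies *Sos* (log2 0.57, adjusted p = 0.289 by edgeR) and *kek2* (-1.71, adjusted p = 0.181) did not pass.

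Higher in the fat body of controls were *kek2*, a further relative of *kek1* (log2 -2.48, standard error 0.87, from 32, 57 and 2 counts in the control fat bodies), *grk*, the EGFR ligand of the oocyte (-2.21, standard error 0.20), *tor*, the receptor tyrosine kinase of the early embryo's ends (-2.04, standard error 0.72), and *Alk*, the anaplastic lymphoma kinase homologue (-1.99, standard error 0.35). *grk* lay between 28.5 and 34.0 CPM in the 3 control fat bodies and between 6.38 and 7.46 in control guts. In guts *tor* moved with the oocyte transcript *osk*. *tor* was highest in library 111 (8.18 CPM, with 75.4 of *osk*) and lowest in library 112 (0.345, with 6.38 of *osk*). In fat bodies library 101 had the most of both (*tor* 23.8, *osk* 176). Library 106, with the least *osk* (19.4), held 17.4 CPM of *tor*, more than libraries 103, 104 and 105. *grk* did not move with *osk*, as it stayed between 28.5 and 34.0 CPM over all fat bodies. In guts *grk* was at 6.76 CPM in library 111, below every induced gut. The part of ovary tissue in the *grk* and *tor* levels was not tested. None of the 8 tested genes between Raf and MAPK, such as *ksr*, *Raf* and the MAPK phosphatase gene *Mkp3*, passed between organs in control flies with all libraries. Without libraries 106 and 112 *Raf* alone of the 8 passed, higher in the gut (log2 0.60, adjusted p = 0.049). In induced flies 2 of the 8 passed, *14-3-3zeta*, higher in the gut, and *PTP-ER*, a phosphatase gene, higher in the fat body.

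The genes whose levels followed *Egfr* most closely over the 12 libraries, centred on each organ's mean, were *CG8475* (Pearson r = 0.94), *Clk*, a transcription factor gene of the circadian clock (0.90), *asRNA:CR44119* (0.90), *CG9044* (0.89) and *CG13284* (0.89), out of 6482 genes compared. In the 6 fat bodies their r lay between 0.95 and 0.99, and in the 6 guts between 0.55 and 0.996. The points share libraries, depth and treatment groups, so this is only a description. None of the 5 other members with enough counts was among them, their r lying between -0.37 (*rl*) and 0.15 (*Dsor1*).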

How the data were processed

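Poly(A) RNA libraries with molecular identifiers were made with 16 PCR cycles and read as paired ends. Raw counts per gene were deposited by the authors, who had collapsed PCR duplicates by identifier (Je), mapped the pairs to fly genome release 6 (HiSat2) and counted them with featureCounts, with no statement on strand. Genes with 0 counts, or outside a companion overexpression data set, are not in their sheets. They also deposited variance-stabilised scores from DESeq2, used here only in an alternative with limma. Counts were tested with edgeR's quasi-likelihood F-test (edgeR 4.0.16, R 4.3.3) with TMM normalization, at least 1 count over the libraries fitted and Benjamini-Hochberg adjustment over all genes tested at 10% FDR. Induction was fitted within each organ, and organ differences and the interaction over 12 libraries and the 10005 genes in both sheets. Because each organ has its own scaling in its induction fit, fold changes there differ slightly from ratios of printed CPM.

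Libraries were grouped by each sample's organ and induction labels, although the protocol label gives RU486 for every sample. The labels carry no replicate number, so none was paired, and p-values measure the spread between libraries of pooled organs. Independent hypothesis weighting, used by the study, was not run here. CPM were counts over TMM-scaled library totals. Before scaling the totals lay between 4932359 and 10254951 counts, and this depth limits the precision for genes under about 50 counts. A log2 level was taken after a prior count of 2. Exon lengths and positions came from Ensembl BDGP6.54, with symbols found for 10279 gut and 10969 fat body genes. Members, pathway genes and markers were chosen with earlier results of these data known. Named beside the members were *pnt*, pathway genes past the threshold on induction, the 4 with the largest organ difference in each direction in controls, and the 5 genes most correlated with *Egfr* among those with a mean of at least 50 counts in each organ. *Pvr*, which passed only without library 112, was chosen after its values were seen. So were *Raf*, *stet*, *htl*, *14-3-3zeta*, *PTP-ER* and the marker genes named singly. Other normalizations, filterByExpr, DESeq2 1.42.0, limma 3.58.1, a 5% FDR, 1 fit of 12 libraries and leaving out each library were tried. The fits were tested on simulated data. Deposited columns without a matching sample numbered 0.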

Additional observations from a re-analysis of the deposited data

How the results depend on the processing

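Every member called between organs kept its direction under all alternatives. Only *aos* in control flies lost its call (without fat body library 105, given above). Between control organs, 145 values of members over all alternatives kept both sign and call, and 5 turned sign. Another 11 passed only in the alternative, among them those given above for *rho*, *vn* and *Dsor1*. The median over all genes moved from 0.00 to -0.25 in control flies and from -0.05 to -0.52 in induced flies when library size alone replaced TMM, and to -0.19 and -0.27 with upper-quartile scaling. The share of calls higher in the gut then moved from 52.2% to 39.4% and 41.7% in control flies, and from 48% to 26.6% and 36.4% in induced flies. Under library size alone 4 members passed in induced flies, and the organ difference was -0.091 for *spi* in controls, -0.13 for *spi* and -0.19 for *Dsor1* in induced flies. The interaction was then -0.039 for *spi*, -0.043 for *Krn*, -0.041 for *rho* and -0.13 for *sty*, with 3 genes called. Upper-quartile scaling gave -0.03 for *spi* between control organs, 0.0057 for *Egfr* in gut and 0.024 for *Dsor1* in fat body on induction.

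Gut induction gave 5 calls over all genes, 43 by DESeq2, 0 at 5% FDR, 0 to 879 with 1 library left out (879 without 112) and 1918 by DESeq2 without 112, of which 1 was a member, *Dsor1*. That DESeq2 fit gave 0.14 for *Egfr*, 0.20 for *sty* and 0.34 for *rl*, and limma gave 0.033 for *rl*. Fat body induction gave 0 calls, 16 by DESeq2, 1 in the fit of 12 libraries, 0 to 2 with 1 library left out (2 without 101) and 84 by DESeq2 without 106, which gave -0.39 for *kek1*, 0.64 for *Dsor1* and -0.17 for *rl*. limma gave 0.038 for *Dsor1*. The interaction gave 0 calls, 13 by DESeq2 and 0 to 3 with 1 library left out. Between control organs 3824 genes were called, 5927 without 106 and 112 (7 members), and 2 to 6 members with 1 library left out (6 without 106, 2 without 105). Without 106 and 112 the interaction of *rl* was 0.50.

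With 1 library left out, signs turned only for values that did not pass. On induction in the gut the ranges were -0.094 to 0.11 (*Egfr*), -0.029 to 0.15 (*spi*), -0.019 to 0.51 (*vn*), -0.26 to 0.17 (*sty*) and -0.19 to 0.31 (*rl*). In the fat body they were -0.20 to 0.039 (*spi*), -0.52 to 0.030 (*vn*), -0.055 to 0.12 (*Krn*), -0.31 to 0.064 (*sty*), -0.38 to 0.74 (*kek1*), -0.33 to 0.64 (*Dsor1*) and -0.17 to 0.42 (*rl*). Organ differences ran from -0.47 to 0.22 for *rl* in controls and from -0.48 to 0.090 for *vn* in induced flies. Interactions ran from -0.0048 to 0.29 (*spi*), -0.17 to 0.66 (*rho*), -0.16 to 0.28 (*sty*) and -0.42 to 0.26 (*rl*). The cause was not tested. The widest intervals were those of *rho*, *kek1* and *vn*, which had few counts, and of *Dsor1*, whose control guts ran from 5.69 to 22.9 CPM.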

Other observations

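Across the 6 fat bodies *Dsor1* and *rl* ran in exactly opposite order. *rl* was 108, 102, 73.8, 71.7, 69.9 and 49.2 CPM in libraries 104, 101, 105, 102, 103 and 106, and *Dsor1* was 3.67, 4.21, 5.46, 8.27, 8.50 and 12.3 CPM. On the log2 scale Pearson's r was -0.96 (two-sided exact permutation p = 0.0014, adjusted over the 45 fat body pairs of members p = 0.0625). Spearman's rho was -1 (exact permutation p = 0.0028, adjusted p = 0.125). At the 10% threshold Pearson's r passed after this adjustment and Spearman's rho did not. The permutations took all 6 libraries as exchangeable and mixed induced with control ones. Yet libraries 104 and 106 stood apart from their own group over many genes (median absolute log2 differences of 0.50 and 0.57). How often other gene pairs reach such an r in these libraries was not counted, so a link particular to this pair is not shown. The pair was singled out for its smallest p, and the 36 gut pairs were adjusted apart. No adjustment over both organs was made, so the pass holds for the fat body pairs alone. Over the 4 libraries left after taking out the 2 farthest from the median of *Dsor1*, r was -0.86. In the gut *Dsor1* fell into separate clusters, with libraries 110 and 111 far above the rest, so r there rests largely on these clusters. It was -0.86 (exact permutation p = 0.0194, adjusted over the 36 gut pairs p = 0.35). Spearman's rho was -0.83 (exact permutation p = 0.0583, adjusted p = 0.70), and neither passed. The ratio of *rl* to *Dsor1* CPM ran from 2.27 (library 111) to 18.1 (library 112) in guts and from 4.01 (library 106) to 29.5 (library 104) in fat bodies. Genes with long exon sequence (at least 4058 bases) differed from short ones (up to 1109 bases) by -0.44, -0.0051 and -0.19 on the log2 scale in induced gut libraries 107, 108 and 109 and by 0.21, 0.57 and -0.12 in controls 110, 111 and 112, as medians of deviations from the gut mean. The libraries with the lowest ratios, 110 and 111, were thus highest on this measure, but 107 and not 112 was lowest. By these limits *rl* (7591 exon bases) was a long gene, and *Dsor1* (1799) was neither long nor short. Libraries 110 and 111, where long genes were relatively high, held the least *rl* of the guts (59.6 and 52.0 CPM). In fat bodies the same measure, with limits of 4092 and 1097 bases, was 0.079, -0.018 and -0.13 in libraries 101, 102 and 103 and -0.15, 0.0093 and 0.13 in libraries 104, 105 and 106. The part of such library differences in the *Dsor1* and *rl* levels was not tested.

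*stet*, the Rhomboid family gene that acts in the germline, measured 26.3, 19.4 and 5.88 CPM in induced fat bodies against 9.003, 5.70 and 2.16 in control ones, a log2 fold change of 1.6026 (standard error 0.67) that did not pass (adjusted p = 0.986 by edgeR). The germline transcript *vas* was at 55.8, 47.2 and 17.5 CPM in the same induced libraries and at 16.2, 19.2 and 4.32 in controls. The part of ovary tissue in the *stet* levels was not tested.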
